A study of Homo sapiens with 5 samples.

Results

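The genes described here are 10 epithelial junction and polarity genes of the human embryonic stem cell line H9: the claudins CLDN3, CLDN4, CLDN6, CLDN7 and CLDN10, the junction proteins OCLN and TJP1, the membrane protease ST14, and the vesicle traffic genes RAB25 and MAL2. They were taken by symbol from a deposited table of 26506 genes, in which all 10 were found. RNA was sequenced in 5 libraries, 1 for each group. These were B3GALT5-KO cells (both copies of the glycosyltransferase gene B3GALT5 disrupted, genotype B3GALT5-/-) in 2iLAF, labelled naive, and wild-type (WT) cells in 5iLAF, labelled naive. The others were WT cells in 2iLAF, labelled primed-naive and described as the control, B3GALT5-KO cells in basal medium, labelled primed, and WT cells in basal medium, labelled primed. All are derivatives of the single H9 line, and how many knockout clones were used is not given in the sources used here. Values are deposited TPM, a transcript abundance scaled for gene length and library total, so levels of different genes can be set side by side.

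Tight junctions seal the space between neighbouring epithelial cells. Claudins are the membrane proteins that form their strands and set which ions pass, occludin (OCLN) is a further strand protein, and TJP1, also called ZO-1, is the cytoplasmic scaffold that ties strands to actin. ST14 encodes matriptase, a serine protease of epithelial surfaces, RAB25 a small GTPase of apical recycling endosomes, and MAL2 a membrane protein of transcytosis to the apical surface. Primed human pluripotent cells grow as a polarised epithelial sheet. Loss of claudins and gain of SNAI and ZEB repressors are textbook features of an epithelial to mesenchymal transition.

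With 1 library a group, no difference between groups has a replicate check, no error can be given, and no p-value is reported. Read depth is unknown, since the table holds no counts. Between 13729 and 14156 genes reached 1 TPM in a library. All 10 pluripotency markers were at or above 1 TPM in every library, with POU5F1, the core pluripotency factor, between 1099 and 3350.3 TPM. In WT 2iLAF, however, 5 of them were at least 2-fold lower than in WT basal and 2 higher, on the log2(TPM + 1) scale used throughout. The 10 naive markers summed to 129 TPM in KO 2iLAF, 157 in WT 5iLAF, 31.9 in WT 2iLAF, 11.8 in KO basal and 11.7 in WT basal. Among them DNMT3L stood at 51.4 and 76.4 TPM in KO 2iLAF and WT 5iLAF, against 1.57, 0.04 and 0.04 TPM in WT 2iLAF, KO basal and WT basal, whereas KLF17 did not exceed 0.12 TPM in any library. DPPA5 and ARGFX, of the same list, reached at most 0.54 and 0.12 TPM. TFCP2L1 lay between 1.38 TPM in KO 2iLAF and 2.77 in WT basal. B3GALT5 stood at 1.17 TPM in KO 2iLAF, 2.08 in WT 5iLAF, 5.13 in WT 2iLAF, 5.98 in KO basal and 9.31 in WT basal. The edited part of that gene is not given in the sources used here, so its level does not check the knockout. In bulk RNA, fewer cells of a type and less RNA per cell cannot be told apart.

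Promoter windows of 250 bases upstream of each annotated start were read for 8 of the 10 genes (14 windows, RefSeq, GRCh38.p14). They were searched on both strands for CACCTG, the E-box that SNAI and ZEB repressors recognise, and for AACCGGTT, the binding sequence of grainyhead-like (GRHL) activators. The E-box was found in 5 of the 14 windows, belonging to RAB25, CLDN7, OCLN and TJP1, against 17.5% of 35116 windows of all genes. Those 4 genes include OCLN and TJP1, which varied least across libraries, and no E-box was in the windows of CLDN3, CLDN4, CLDN6 or CLDN10. A GRHL match was in none of the 14 and in 0.117% of all windows. The windows of RAB25 and CLDN7 are shown because they hold the E-box and belong to genes lower by the 2-fold rule used below in both libraries labelled naive. The E-box is given in capitals, as CACCTG or as CAGGTG where it lies on the other strand. Each is written 5′ to 3′ on the strand of its gene and ends at the base before the start. CLDN7 has a second annotated start upstream, whose window holds no E-box. The window of its downstream start, printed here, holds 4 E-boxes, a number reached by 0.122% of all windows. These letters describe the sequence and show no binding.
RAB25, chr1:156060910-156061159, plus strand: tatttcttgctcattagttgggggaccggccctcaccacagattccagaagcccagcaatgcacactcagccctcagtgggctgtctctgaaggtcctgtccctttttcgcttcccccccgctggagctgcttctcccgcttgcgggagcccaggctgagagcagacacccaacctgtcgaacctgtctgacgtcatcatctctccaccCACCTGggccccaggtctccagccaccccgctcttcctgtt
CLDN7, chr17:7262479-7262728, minus strand: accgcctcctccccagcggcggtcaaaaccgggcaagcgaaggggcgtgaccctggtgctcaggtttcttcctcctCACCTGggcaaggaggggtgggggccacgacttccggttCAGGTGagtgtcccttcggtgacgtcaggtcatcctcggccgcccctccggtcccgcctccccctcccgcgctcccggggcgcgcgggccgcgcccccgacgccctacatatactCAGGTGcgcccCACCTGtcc

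CLDN6, a claudin of embryonic epithelia and of undifferentiated pluripotent cells, was the most abundant of the 10 in every library. It stood at 449.9 TPM in KO 2iLAF, 566 in WT 5iLAF, 1212 in WT 2iLAF, 841 in KO basal and 912 in WT basal. The libraries labelled naive were the lowest and WT 2iLAF the highest, over a 2.69-fold range. CLDN6 ranked 323rd and 238th among all genes in KO 2iLAF and WT 5iLAF, and between 116th and 153rd in the other 3 libraries. In GENCODE 29 transcripts, 8.01% of its words of 50 bases also occur in another gene, where reads may have been divided by estimate.

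CLDN7, a claudin of many simple epithelia, stood at 8.99 TPM in KO 2iLAF, 12.9 in WT 5iLAF, 188 in WT 2iLAF, 137 in KO basal and 127 in WT basal. The libraries labelled naive were far below the other 3, whose lowest level was 9.86 times the higher naive-labelled level. Of its words of 50 bases, 8.25% also occur in another gene. CLDN3 and CLDN4, neighbours on chromosome 7 that both serve as receptors of Clostridium perfringens enterotoxin, showed the same arrangement of libraries. CLDN4 stood at 2.01 TPM in KO 2iLAF, 1.94 in WT 5iLAF, 111 in WT 2iLAF, 49.2 in KO basal and 29.7 in WT basal. CLDN3 stood at 0.52 TPM in KO 2iLAF, 0.39 in WT 5iLAF, 45.2 in WT 2iLAF, 12.1 in KO basal and 10.2 in WT basal. Both were thus highest in WT 2iLAF, above either basal library. CLDN4 exceeded CLDN3 in each library, by 3.87-fold in KO 2iLAF, 4.97-fold in WT 5iLAF, 2.45-fold in WT 2iLAF, 4.08-fold in KO basal and 2.91-fold in WT basal.

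CLDN10, which makes channels for cations or anions depending on its isoform, differed in WT 2iLAF from the other claudins among the 10 genes. It stood at 2.41 TPM in KO 2iLAF, 1.99 in WT 5iLAF, 11.02 in WT 2iLAF, 23.2 in KO basal and 25.7 in WT basal. The WT 2iLAF level lay between the naive-labelled pair and the basal pair. For CLDN10, 45.4% of its words also occur in transcripts of DZIP1, so its value is less certain than those of the other claudins.

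**Figure D1:**
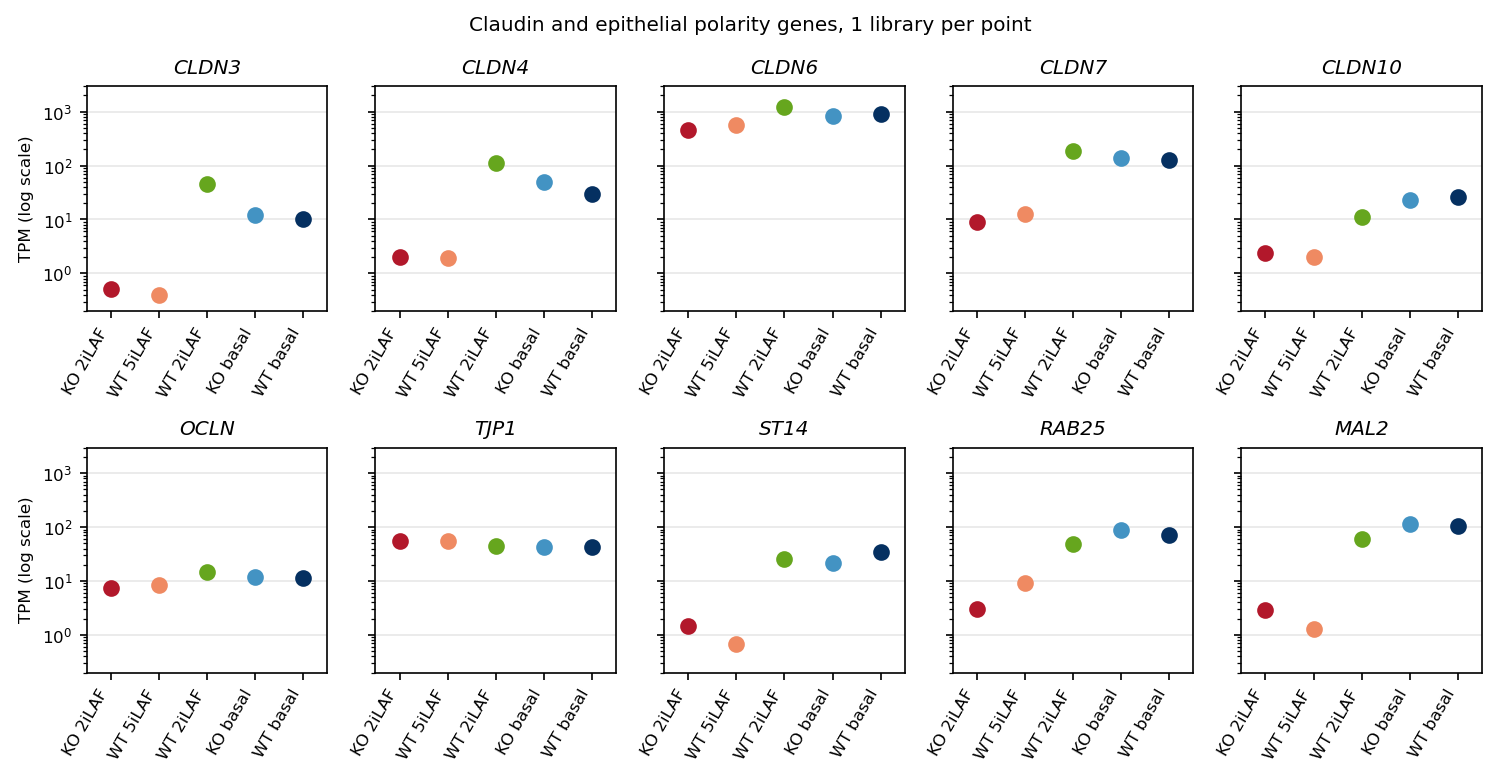
TPM on a log axis for each of the 10 genes, 1 point per library (KO 2iLAF, WT 5iLAF, WT 2iLAF, KO basal, WT basal). CLDN3, CLDN4, CLDN7, CLDN10, ST14, RAB25 and MAL2 lie far lower in KO 2iLAF and WT 5iLAF than in the other 3 libraries, while CLDN6 is the highest gene in every library and OCLN and TJP1 span less than 2-fold.

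OCLN and TJP1 each varied less than 2-fold over the 5 libraries. OCLN stood at 7.47 TPM in KO 2iLAF, 8.26 in WT 5iLAF, 14.6 in WT 2iLAF, 11.9 in KO basal and 11.4 in WT basal. A partial copy, OCLNP1, shares 7.79% of its words. TJP1 stood at 55.6 TPM in KO 2iLAF, 56.1 in WT 5iLAF, 44.2 in WT 2iLAF, 42.6 in KO basal and 43.1 in WT basal. It was the only one of the 10 genes that was higher in both naive-labelled libraries than in the other 3, over a 1.32-fold range, and shared no word with another gene. On the TPM scale, TJP1 was 7.44 and 6.79 times as abundant as OCLN in KO 2iLAF and WT 5iLAF, against 3.03, 3.57 and 3.77 times in WT 2iLAF, KO basal and WT basal.

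MAL2, the transcytosis protein, stood at 2.87 TPM in KO 2iLAF, 1.28 in WT 5iLAF, 59.5 in WT 2iLAF, 115 in KO basal and 107 in WT basal. ST14 stood at 1.45 TPM in KO 2iLAF, 0.69 in WT 5iLAF, 26.1 in WT 2iLAF, 21.4 in KO basal and 35.1 in WT basal. For these genes KO 2iLAF lay above WT 5iLAF, by 2.24-fold for MAL2 and 2.10-fold for ST14. RAB25 had the opposite order within that pair, with 3.03 TPM in KO 2iLAF, 9.26 in WT 5iLAF, 47.5 in WT 2iLAF, 89.3 in KO basal and 70.9 in WT basal. Its highest level was that of KO basal. No word of ST14 or RAB25 occurs in another gene, and 3.55% of those of MAL2 occur in MAL2-AS1, its antisense neighbour.

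CLDN6 made up most claudin transcripts everywhere, and more so in the naive-labelled libraries. The 24 claudin genes examined summed to 512 TPM in KO 2iLAF, 636 in WT 5iLAF, 1623 in WT 2iLAF, 1124 in KO basal and 1166 in WT basal. CLDN6 took 87.9% and 89.0% of that sum in KO 2iLAF and WT 5iLAF, against 74.7%, 74.9% and 78.3% in WT 2iLAF, KO basal and WT basal. CLDN3, CLDN4 and CLDN7 together held 11.5 and 15.2 TPM in KO 2iLAF and WT 5iLAF, against 344, 198 and 167 TPM in WT 2iLAF, KO basal and WT basal. CLDN12, a widely expressed claudin outside the 10 genes, stood at 25.4, 25.6, 29.3, 36.7 and 42.4 TPM in KO 2iLAF, WT 5iLAF, WT 2iLAF, KO basal and WT basal, and was thereby the second claudin in both naive-labelled libraries.

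**Figure D2:**
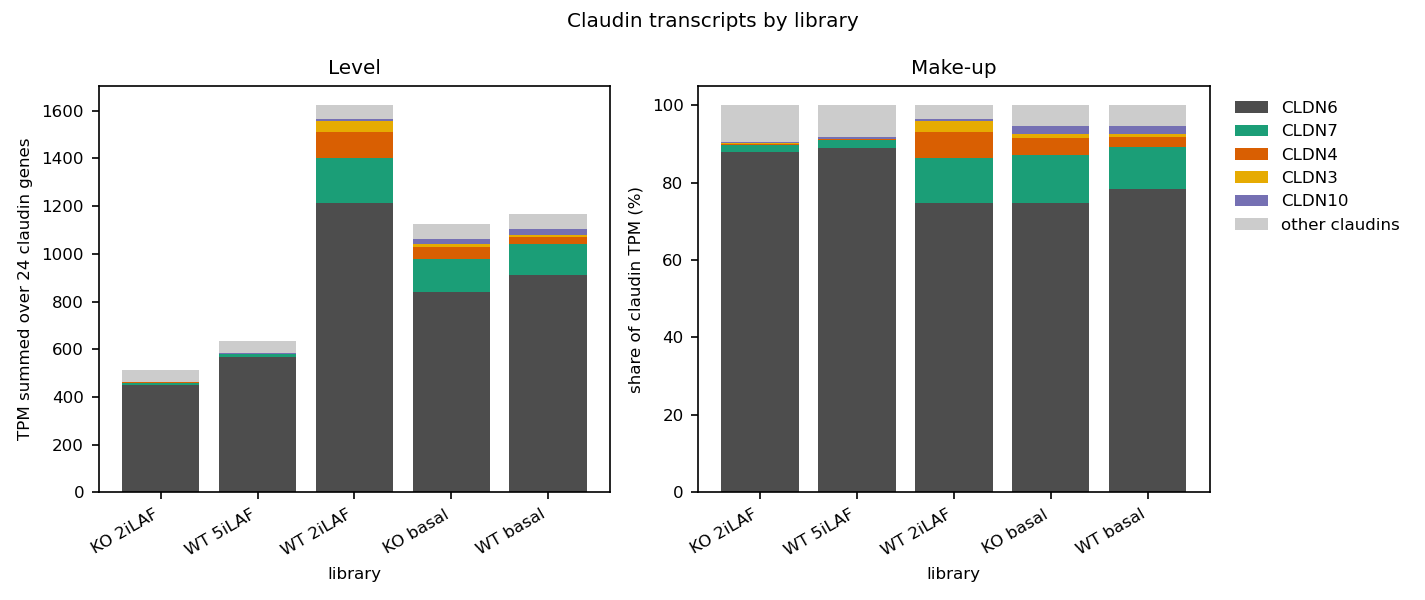
Claudin transcripts by library, as TPM summed over 24 claudin genes (left) and as each gene's share of that sum in percent (right). CLDN6 takes 87.9% of the sum in KO 2iLAF and 89.0% in WT 5iLAF, and CLDN7 takes 11.6% in WT 2iLAF, 12.2% in KO basal and 10.9% in WT basal, while CLDN3 stays at or under 2.78% in every library.

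For each pair of libraries the log2 ratio of TPM + 1 was taken, which shrinks the ratios of weakly expressed genes. Genes whose ratio was 1 or more in size, a 2-fold difference on that scale, are called counted below. The 15761 genes that reached 1 TPM in a library, all 10 members among them, gave the background share for each comparison. A gene that passes this filter through its high libraries alone is bound to differ, so these shares describe the libraries and support no test. Several comparisons share a library, and their values are given side by side.

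B3GALT5-KO cells in basal medium were set against WT cells in basal medium to see what loss of the gene does in primed culture. None of the 10 genes was counted as higher or lower, against 0.704% of all genes higher and 1.05% lower. The largest ratios were those of CLDN4, at 49.2 TPM in KO basal against 29.7 in WT basal (log2 ratio 0.71), and ST14, at 21.4 against 35.1 TPM (-0.68). The other 8 lay between -0.14 and 0.33. The median was 0.08, beside -0.06 over all genes. Both CLDN4 and ST14 pass a 1.5-fold rule, under which 449 of the 15761 genes were higher and 756 lower. With 1 library in each group, passing that rule does not show that their levels differ. Summed erythroid transcripts stood at 10.7 TPM in KO basal and 231 TPM in WT basal, and their part in these values was not tested.

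WT cells in 5iLAF were set against WT cells in basal medium. CLDN3, CLDN4, CLDN7, CLDN10, ST14, RAB25 and MAL2 were counted as lower and none of the 10 as higher, against 11.4% of all genes lower and 10.7% higher. The median ratio was -3.09, beside -0.06 over all genes. What was left of the WT basal level differed from gene to gene. It was 1.198% for MAL2, 1.97% for ST14, 3.81% for CLDN3, 6.52% for CLDN4, 7.75% for CLDN10, 10.1% for CLDN7 and 13.1% for RAB25. CLDN6 kept 62.0% and OCLN 72.2%, whereas TJP1 stood at 130.2%.

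In knockout cells the naive-labelled library was KO 2iLAF, which was set against KO basal, a pair that shares no library with the WT 5iLAF comparison. The 7 genes named for WT 5iLAF were again the ones counted as lower, and none was higher, against 11.8% of all genes lower and 15.9% higher. The median was -3.15, beside 0.02 over all genes. RAB25 kept 3.39% of its KO basal level and MAL2 2.49%. CLDN4 kept 4.08%, CLDN3 4.31%, CLDN7 6.56%, ST14 6.77% and CLDN10 10.4%. CLDN6 stood at 53.5% and OCLN at 62.6%, and TJP1 at 130.4%. Log2 ratios ranged from -4.91 for MAL2 to 0.38 for TJP1.

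Transcripts of other cell types differed between the same libraries. Fibroblast and feeder markers summed to 6031 TPM in KO 2iLAF and 2274 in WT 5iLAF, against 442, 1065 and 993 TPM in WT 2iLAF, KO basal and WT basal, where THY1, also a surface marker of primed stem cells, and FBLN1 made up most of the sum. Of the 10 fibroblast markers, 10 reached 1 TPM in KO 2iLAF and 9 in WT 5iLAF, against 6 in each other library. COL3A1, a fibrillar collagen, stood at 1871 TPM in KO 2iLAF and 258 in WT 5iLAF and at most 0.30 elsewhere. Granulocyte markers summed to 1428 TPM in KO 2iLAF and to between 1.57 and 4.91 TPM elsewhere, with all 18 at or above 1 TPM in KO 2iLAF and at most 2 of them elsewhere, and S100A8 listed at 0 in the other 4 libraries. Erythroid markers summed to 226 TPM in KO 2iLAF, 18.8 in WT 5iLAF, 1.18 in WT 2iLAF, 10.7 in KO basal and 231 in WT basal. Endoderm markers summed to 1020.1 TPM in KO 2iLAF and 1974 in WT 5iLAF, against 7.68, 6.63 and 7.46 TPM in WT 2iLAF, KO basal and WT basal. At or above 1 TPM were 8 of the 9 endoderm markers in each naive-labelled library, against 2 or 3 in the others, and 7, 3, 0, 2 and 8 of the 10 erythroid markers in KO 2iLAF, WT 5iLAF, WT 2iLAF, KO basal and WT basal. When the fibroblast, granulocyte and erythroid genes were left out and TPM rescaled, 7 of the 10 genes were again counted as lower in each naive-labelled library. In KO 2iLAF these lists held only 0.603%, 0.143% and 0.0226% of all TPM, so leaving them out could hardly move a ratio. Other transcripts of such cells stayed in, so the step is no check on their presence. Whether cells of those types displaced epithelial cells in these cultures was not tested.

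The control library, WT 2iLAF, had another pattern. Against WT basal, CLDN3 and CLDN4 were counted as higher and CLDN10 as lower, with 4.73% of all genes higher and 7.02% lower. The median was 0.18, beside -0.13 over all genes. CLDN3 stood at 45.2 TPM in WT 2iLAF against 10.2 in WT basal, 4.41-fold, and CLDN4 at 111 against 29.7 TPM, 3.73-fold. CLDN7 (188 against 127 TPM) and CLDN6 (1212 against 912 TPM) had positive ratios of 0.57 and 0.41. MAL2 (-0.83), RAB25 (-0.57) and ST14 (-0.41) had negative ones. CLDN10, at 11.02 against 25.7 TPM, had a ratio of -1.15. Median-ratio scaling moved the median of all genes to 0.00 and raised the share of higher genes among all counted genes to 53.6%, against 40.2% without it. Under it CLDN3 and CLDN4 were still counted as higher, and CLDN10 was no longer counted. Markers of other states differed in the same comparison. Trophoblast and amnion markers summed to 57.9 TPM in WT 2iLAF, against 18.9 TPM in WT basal and at most 20.2 TPM in the other libraries, and 4 of 8 tested were counted as higher and 2 as lower. GATA3, a trophoblast and amnion factor, stood at 6.70 TPM in WT 2iLAF against 0.34 in WT basal, and KRT7, a simple epithelial keratin, at 27.04 against 9.88 TPM. GABRP, of the same list, went the other way, at 0.39 TPM in WT 2iLAF against 4.65 in WT basal. Of the 10 pluripotency markers, 5 were lower, among them NANOG at 16.5 TPM in WT 2iLAF against 171 in WT basal and TDGF1 at 69.3 against 519.5 TPM. The part of these markers in the CLDN3 and CLDN4 levels was not tested.

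Within 2iLAF, knockout cells were set against WT cells. Of the 10 genes, 8 were counted as lower and none as higher, against 10.8% of all genes lower and 16.6% higher. The median was -3.53, beside 0.10 over all genes. CLDN4, at 2.01 TPM in KO 2iLAF against 111 in WT 2iLAF, had a log2 ratio of -5.22, and CLDN3, at 0.52 against 45.2 TPM, one of -4.92. CLDN6 joined the counted genes here, at 449.9 against 1212 TPM (-1.43). OCLN (-0.88) and TJP1 (0.32) did not. The medium change of the knockout, as a log2 ratio, minus that of the WT cells was -5.92 for CLDN4, -5.14 for CLDN3, -4.36 for CLDN7, -4.08 for MAL2, -3.92 for RAB25, -2.78 for ST14, -1.67 for CLDN10, -1.31 for CLDN6, -0.94 for OCLN and 0.34 for TJP1. With 1 library in each of the 4 groups, that difference could not be tested. The 2 libraries also carry different state labels, naive and primed-naive, so genotype and state cannot be told apart.

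**Figure D3:**
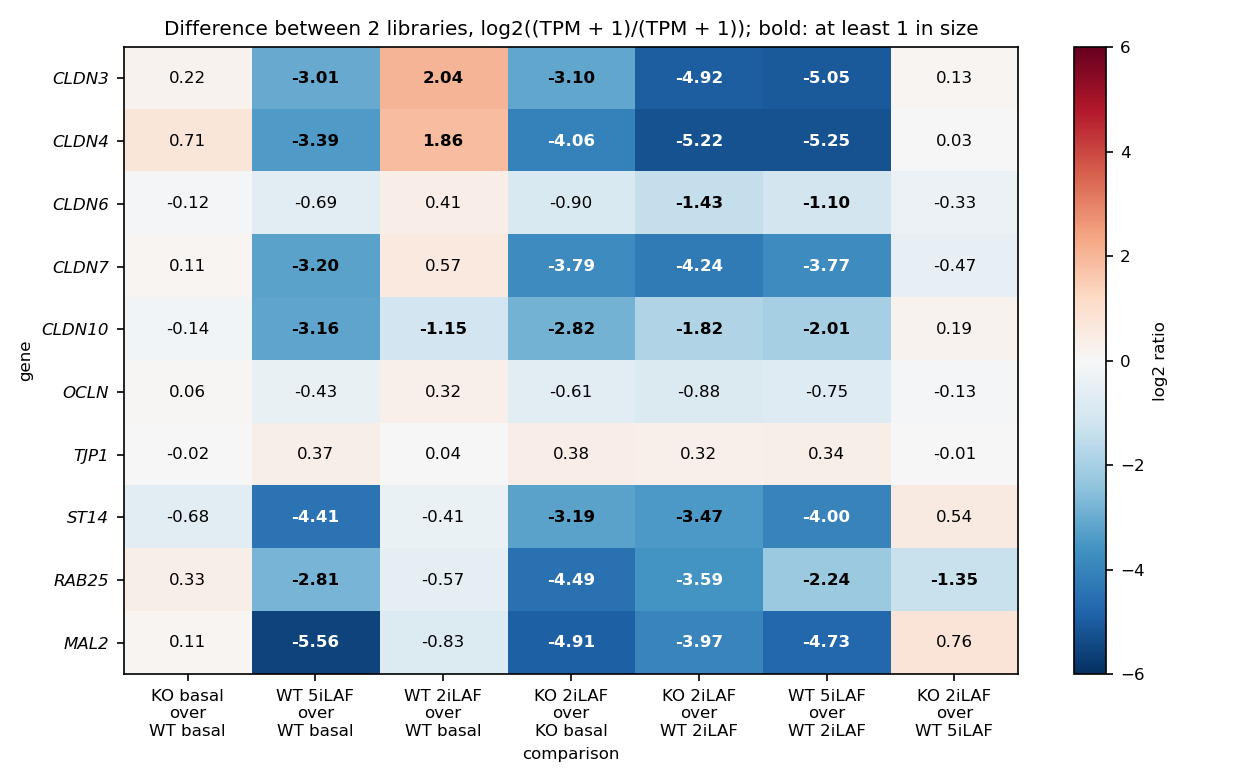
Log2((TPM + 1)/(TPM + 1)) of the 10 genes (rows) in 7 comparisons of 2 libraries (columns, the first-named library over the second), blue where the first-named is lower and red where it is higher, with ratios of at least 1 in size in bold. The columns of KO basal over WT basal and KO 2iLAF over WT 5iLAF are pale, and the 4 columns that set a naive-labelled library against another state are blue in 9 of 10 rows, all but TJP1, with 7 or 8 of them in bold.

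WT cells in 5iLAF were also set against WT cells in 2iLAF, a comparison that shares WT 2iLAF with the one just given. Again 8 genes were counted as lower, against 9.53% of all genes lower and 12.2% higher, and the median was -3.01, beside 0.08 over all genes. CLDN3, at 0.39 TPM in WT 5iLAF, kept 0.864% of its WT 2iLAF level, CLDN4 1.75%, MAL2 2.15% and ST14 2.64%. CLDN6 kept 46.7% (-1.10).

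The naive-labelled libraries, KO 2iLAF and WT 5iLAF, differ in both genotype and medium, which cannot be told apart between them. RAB25 alone was counted, as lower, at 3.03 TPM in KO 2iLAF against 9.26 in WT 5iLAF (-1.35), while 1.03% of all genes were lower and 4.90% higher. The median of the 10 genes was 0.01, beside 0.00 over all genes. CLDN3, CLDN4, OCLN, TJP1 and CLDN10 lay between -0.13 and 0.19. MAL2 (0.76), ST14 (0.54), CLDN7 (-0.47) and CLDN6 (-0.33) completed the set.

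By state label, 9 of the 10 genes were lower in both naive-labelled libraries than in any of the other 3, and TJP1 was higher. Of all genes, 26.9% were lower and 29.3% higher in that way. The gap was widest for MAL2, whose lowest level among the other 3 libraries was 20.7 times its highest naive-labelled level. It was 19.7 times for CLDN3, 14.8 times for CLDN4 and for ST14, 5.13 times for RAB25 and 4.57 times for CLDN10. For CLDN6 and OCLN it was 1.49 and 1.38 times.

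Other genes of the same structures are given next, first for KO 2iLAF against KO basal, where 11.8% of all genes were lower and 15.9% higher, and then for WT 5iLAF against WT basal, where 11.4% were lower and 10.7% higher. Among 17 other tight junction proteins and scaffolds, 5 and 3 were counted as lower and none as higher, with medians of -0.58 and -0.47. MARVELD3, an occludin relative, stood at 0.39 TPM in KO 2iLAF and 0.54 in WT 5iLAF, against 25.1, 20.3 and 24.01 TPM in WT 2iLAF, KO basal and WT basal. TJP3, a scaffold related to TJP1, stood at 2.73 and 3.44 TPM in KO 2iLAF and WT 5iLAF, against 37.9 TPM in WT 2iLAF, 8.55 in KO basal and 7.08 in WT basal. F11R, the adhesion protein JAM-A, ranged only from 124 to 186 TPM. Of 9 tested claudin family genes outside the 10 (20 were looked for), none was lower and 1 was higher in each comparison, with medians of -0.25 and 0.25. CLDN11 stood at 6.30 TPM in KO 2iLAF against 0.17 in KO basal, and at 6.47 TPM in WT 5iLAF against 2.45 in WT basal.

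Of 21 tested Par, Crumbs and Scribble genes, 4 were lower and 3 higher in KO 2iLAF against KO basal, and 6 lower and 4 higher in WT 5iLAF against WT basal, with medians of -0.18 and -0.32. Over all genes the shares were 11.8% lower and 15.9% higher in the first comparison and 11.4% lower and 10.7% higher in the second, and nothing particular to polarity genes is read from these counts. CRB3, the Crumbs protein of epithelia, stood at 4.42 TPM in KO 2iLAF and 3.01 in WT 5iLAF, against 27.7, 16.6 and 18.0 TPM in WT 2iLAF, KO basal and WT basal. CRB2 had another order, with 17.3, 4.46, 11.8, 1.33 and 0.94 TPM across KO 2iLAF, WT 5iLAF, WT 2iLAF, KO basal and WT basal. CDC42, a GTPase of polarity and actin, was at 519.8 and 476 TPM in KO 2iLAF and WT 5iLAF, against 242, 219.9 and 222 TPM in WT 2iLAF, KO basal and WT basal.

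Of 7 tested partners, inhibitors and relatives of matriptase, 5 were counted as lower in each comparison and none as higher, with medians of -1.95 and -1.40. PRSS8, or prostasin, a protease that works in a cascade with matriptase, stood at 19.8 TPM in KO 2iLAF and 31.1 in WT 5iLAF, against 161, 191 and 181 TPM in WT 2iLAF, KO basal and WT basal. EPCAM, an adhesion protein that binds CLDN7, stood at 68.0 and 118 TPM in KO 2iLAF and WT 5iLAF, against 297, 265 and 302 TPM in WT 2iLAF, KO basal and WT basal. SPINT2, an inhibitor of matriptase, was at 176 TPM in KO 2iLAF against 277 in KO basal, and at 224 TPM in WT 5iLAF against 254 in WT basal, and was not counted. All 7 tested genes were lower in both naive-labelled libraries than in the other 3, as were 26.9% of all genes.

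Of 19 tested apical traffic genes beyond RAB25 and MAL2, 2 were lower and 2 higher in KO 2iLAF against KO basal, and 1 lower and 2 higher in WT 5iLAF against WT basal, with medians of 0.00 and -0.01. These counts are close to or below the shares over all genes, and nothing particular to the list is read from them. RAB17, a GTPase of polarised epithelia, stood at 13.5 TPM in KO 2iLAF against 76.9 in KO basal, and at 34.1 TPM in WT 5iLAF against 62.3 in WT basal. VAMP8, a vesicle fusion protein, was at 269 TPM in KO 2iLAF against 76.9 in KO basal and at 370.2 TPM in WT 5iLAF against 82.7 in WT basal, and stood at 26.6 TPM in WT 2iLAF. RAB11B ranged from 99.2 to 142 TPM.

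Desmosome and adherens junction genes gave 3 lower and 4 higher of 13 tested in KO 2iLAF against KO basal, and 3 lower and 3 higher in WT 5iLAF against WT basal, with medians of 0.28 and 0.22. CDH1, E-cadherin, stood at 25.1 TPM in KO 2iLAF, 31.1 in WT 5iLAF, 233 in WT 2iLAF, 116 in KO basal and 115 in WT basal. PKP3, a desmosomal plaque protein, was at 3.97 and 2.02 TPM in KO 2iLAF and WT 5iLAF, against 17.1, 16.2 and 14.7 TPM in WT 2iLAF, KO basal and WT basal. DSP was instead counted as higher in both, at 67.4 and 76.7 TPM in KO 2iLAF and WT 5iLAF. Its levels were 28.9, 28.75 and 35.3 TPM in WT 2iLAF, KO basal and WT basal. PERP was also counted as higher in both, at 81.8, 71.8, 46.15, 23.0 and 32.8 TPM in the same order of libraries. CTNNB1, beta-catenin, ranged from 346 to 478 TPM.

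**Figure D4:**
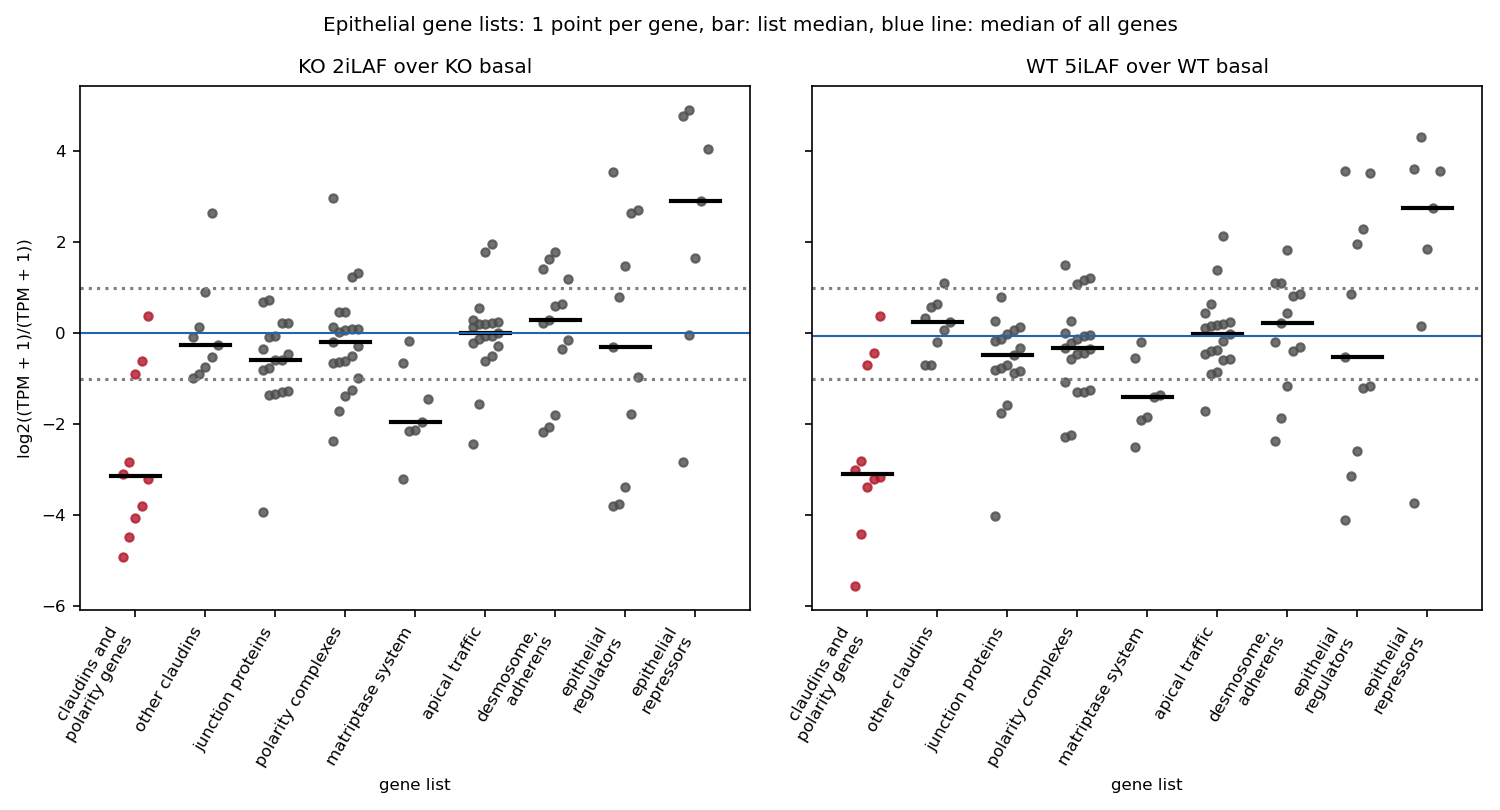
Log2((TPM + 1)/(TPM + 1)) of the tested genes in 9 lists, 1 point per gene, for KO 2iLAF over KO basal (left) and WT 5iLAF over WT basal (right); the bar is the list median, the blue line the median of all genes and the dotted lines the 2-fold size rule. The 10 claudin and polarity genes (red) have medians of -3.15 and -3.09, and the repressor list has medians of 2.90 and 2.76. The medians of desmosome and adherens genes and of apical traffic genes lie near 0, with genes past the size rule in both directions.

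Regulators of epithelial genes had more than 1 pattern. GRHL2, an activator of claudin and cadherin genes, stood at 0.18 TPM in KO 2iLAF and 0.09 in WT 5iLAF, against 21.0, 15.5 and 17.7 TPM in WT 2iLAF, KO basal and WT basal. GRHL3, also of the grainyhead-like family, went the other way. It stood at 11.07 TPM in KO 2iLAF and 11.97 in WT 5iLAF. Its levels were 6.58, 0.03 and 0.12 TPM in WT 2iLAF, KO basal and WT basal. ESRP1, an epithelial splicing regulator, was at 7.74 and 13.5 TPM in KO 2iLAF and WT 5iLAF, against 78.4, 117 and 125 TPM in WT 2iLAF, KO basal and WT basal. TFAP2C, which acts in surface ectoderm and trophoblast, was at 48.6, 55.2 and 36.5 TPM in KO 2iLAF, WT 5iLAF and WT 2iLAF, against 6.61 and 3.72 TPM in KO basal and WT basal. TFAP2A was highest in WT 2iLAF, at 17.3 TPM. It stood at 2.09, 3.12, 0.10 and 0.06 TPM in KO 2iLAF, WT 5iLAF, KO basal and WT basal. TFAP2A is also on the trophoblast and amnion list, so the counts of both lists hold it. Of the 11 tested regulators, 4 were lower and 4 higher in KO 2iLAF against KO basal, and 5 lower and 4 higher in WT 5iLAF against WT basal, with medians of -0.31 and -0.53. In WT 2iLAF against WT basal, 4 of the 11 were higher and none lower, against 4.73% of all genes higher and 7.02% lower. The median of the 11 there was 0.41.

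Repressors of junction genes were counted as higher in 5 of 7 cases and lower in 1 in each comparison, with medians of 2.90 and 2.76. The gene not counted was SNAI1, which ranged only from 15.5 to 17.8 TPM over the 5 libraries. SNAI2 stood at 47.3 TPM in KO 2iLAF and 16.6 in WT 5iLAF, against 0.60 in KO basal and 0.47 in WT basal, and was listed at 0 in WT 2iLAF. ZEB2 was at 27.6 and 20.2 TPM in KO 2iLAF and WT 5iLAF, against 0.29, 0.04 and 0.06 TPM in WT 2iLAF, KO basal and WT basal. TWIST1 stood at 18.6 and 11.8 TPM in KO 2iLAF and WT 5iLAF, against 1.83, 0.18 and 0.04 TPM in WT 2iLAF, KO basal and WT basal. SNAI3 was the member counted as lower, at 0.63 and 0.07 TPM in KO 2iLAF and WT 5iLAF, against 5.67, 10.6 and 13.3 TPM in WT 2iLAF, KO basal and WT basal. In both naive-labelled libraries, 5 of the 7 repressors stood above and 1 below their levels in all 3 others. Of all genes, 29.3% stood above and 26.9% below in the same way.

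Profiles most like those of 9 of the 10 genes, without ST14, were found by the root mean square distance between centred log2(TPM + 1) values over the 5 libraries, among genes reaching 10 TPM. CLDN3 and CLDN4 were each other's second nearest gene, at a distance of 0.34. Nearest to CLDN3 was SHISA2 (0.28) and nearest to CLDN4 was PMEL (0.31). SFRP1 lay nearest to CLDN7 (0.14) and LINC00599 to MAL2 (0.37). RAB25 had CKMT1A (0.25) and ESRP1 (0.26) as its nearest genes, and CLDN10 had GALNT14 (0.13). CLDN6, OCLN and TJP1 varied little, so many genes lay close to them, with SMA5 at 0.03 from CLDN6, STAT5B at 0.03 from OCLN and ETFB at 0.02 from TJP1. With 5 libraries these distances are descriptions.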

How the data were processed

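RNA of H9 cells was sequenced in 5 libraries, 1 per group. Per the submitters' processing notes, the tools were Trimmomatic 0.39, Bowtie2 2.3.4.1 and RSEM 1.2.28, with genome build hg19; the sources used here give neither the annotation nor the strand setting. Deposited was 1 table of TPM and FPKM per gene symbol, per the file headers. It holds no counts, so depth is unknown. Reads matching several genes are divided among them by RSEM's estimate.

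TPM was compared in 7 pairs of libraries as log2((TPM + 1)/(TPM + 1)), over the 15761 genes reaching 1 TPM in a library, with a size rule of 1 and no test. Members and lists were chosen with earlier results of these data known. All 10 members are named. Of other lists up to 4 genes are named, those of highest TPM and of widest log2 range. Any further gene was named after its values were seen. These are KLF17, DPPA5, ARGFX, TFCP2L1, THY1, FBLN1, B3GALT5, SNAI1, GRHL3, DSP and PERP. Naive markers, and trophoblast and amnion markers, were summarised in the same way. Their medians cover only the 7 of 10 and 8 of 12 listed genes that reached 1 TPM in a library. KLF17, DPPA5 and ARGFX did not reach it. A gene that passes this filter through its high libraries alone is bound to differ, so these medians are no check. The naive median and the trophoblast and amnion median were 1.86 and 1.03 in KO 2iLAF against KO basal. They were 1.91 and 0.87 in WT 5iLAF against WT basal, and 0.41 and 0.83 in WT 2iLAF against WT basal. The profile nearest to ST14 is not reported here. Shared words of 50 bases came from GENCODE 29 transcripts. The procedure was tested on simulated data. Alternatives were 2 pseudocounts, 2 filters, 2 scalings, FPKM, 2 size rules and leaving out marker lists of other cells. Python 3.11.15, numpy 2.4.6, pandas 2.3.3 and matplotlib 3.10.9 were used.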

Additional observations from a re-analysis of the deposited data

Results flagged for a closer look

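For 5 of the 10 genes, 2iLAF against basal medium went in opposite directions in knockout and WT cells. With 1 library in each group, the difference was not tested. The count used sign alone, without the size rule, and the share of all genes with opposite signs is not given. Nothing particular to these genes is therefore read from it. The log2 ratio was -3.10 in knockout and 2.04 in WT cells for CLDN3, a difference of -5.14. For CLDN4 it was -4.06 and 1.86, a difference of -5.92. CLDN7 had -3.79 and 0.57, a difference of -4.36, and CLDN6 -0.90 and 0.41, a difference of -1.31. For OCLN the values were -0.61 and 0.32, a difference of -0.94. Neither ratio of CLDN6 and neither ratio of OCLN reached the size rule.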

How the results depend on the processing

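No paired analysis was possible because each group holds 1 library. Of 700 values of single genes under the 10 alternatives, 680 kept their direction and their side of the size rule, 10 lost the call, 10 gained one and none reversed. The 2 filters do not enter a ratio and all 10 genes pass them, so the 70 values under each could not change. Leaving out the marker lists hardly moved the ratios, so its 70 values were nearly bound to stay the same. The total of 680 therefore overstates how far the calls were tried. The count of 7 lower genes in WT 5iLAF against WT basal and in KO 2iLAF against KO basal was 7 under every alternative except the 1.5-fold rule, which gave 8 and 9. KO basal against WT basal had 2 counted genes at 1.5-fold, against 0. In WT 2iLAF against WT basal, 1 gene was counted at 4-fold, against 3, and CLDN10 was not counted with a pseudocount of 5 or with median-ratio or trimmed-mean scaling (log2 ratios -0.94, -0.98 and -0.99, against -1.15). KO 2iLAF against WT 5iLAF had 1 counted gene, RAB25. That count was 2 with a pseudocount of 0.1 and at 1.5-fold, and 0 with a pseudocount of 5 and at 4-fold. Over all genes, counts moved with the rule. They were 277 (44 to 1205) for KO basal and 3487 (1091 to 6401) for WT 5iLAF, each against WT basal, 1852 (392 to 4748) for WT 2iLAF against WT basal and 4370 (1429 to 7584) for KO 2iLAF against KO basal. Against WT 2iLAF they were 4328 (1422 to 7404) for KO 2iLAF and 3427 (1074 to 6395) for WT 5iLAF, and for KO 2iLAF against WT 5iLAF 935 (226 to 2160). Levels near 1 TPM, as of CLDN3 and ST14 in the naive-labelled libraries, are the least certain because depth is unknown.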
